A study of Mus musculus with 8 samples.

Results

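Micro_1 is the most numerous of 4 microglia clusters that the authors annotated among leukocytes of the mouse brain and its borders. Its members were taken from the deposited annotation, as every cell whose cluster name is Micro_1, and there were 4357 of them among 32457 annotated cells. Of these, 3892 came from brain and 465 from pia and dura. The other microglia clusters were Micro_2 with 3832 cells, Micro_3 with 1590 and stress_Micro with 727.

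Microglia are the resident macrophages of the brain parenchyma. In the undisturbed brain they hold a homeostatic programme, maintained by transforming growth factor beta and colony stimulating factor 1 receptor signalling, with receptors that sense the surroundings (P2ry12, Cx3cr1, Gpr34), lysosomal enzymes such as Ctsd and complement component C1q. After injury they can lower this programme and raise lipid-handling genes, phagocytic receptors, cytokines or interferon-stimulated genes.

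The study sorted CD45+ leukocytes that an intravenous CD45 antibody had not reached (CD45iv-), from adult male C57BL/6 mice, and sequenced them in droplets. The groups used here are control brain, pia and dura (1 library each), brain 24 h after transient middle cerebral artery occlusion (MCAO, 2 libraries), pia and dura 24 h after MCAO (1 library each) and brain 72 h after MCAO (1 library). The labels say only control. The study's methods name naive wild-type animals as the single-cell controls, whereas its figure legends call them sham-operated, so surgery without occlusion may be absent from the controls. The labels give neither the occlusion time nor the number of mice behind a library, so p-values below measure the spread between libraries, which may be technical. For 1 library, control pia, the tissue label says pia but the sample title says brain; it is called pia here.

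Each library held between 6591898 (control pia) and 20754181 UMIs (72 h brain), where a unique molecular identifier (UMI) counts 1 captured RNA molecule. Micro_1 supplied 1864 cells in control brain, 1402 in 24 h brain replicate 1, 420 in 24 h brain replicate 2 and 206 in 72 h brain. There were 207 Micro_1 cells in control pia, 198 in 24 h pia, 24 in control dura and 36 in 24 h dura. The median Micro_1 cell held 1628, 1471, 805 and 1582 UMIs in the 4 brain libraries in that order, so the cells of replicate 2 were the shallowest of brain. In pia the medians were 1783 (control) and 1526 (24 h), and in dura 773 and 1037. Levels are given as CPM, the UMIs of a gene in every 1000000 UMIs of the summed cells of a class in a library, over the 30406 genes that all files share.

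The libraries fell into 2 sets that the labels do not name. The files of 24 h brain replicate 2 and 72 h brain list 31053 genes and carry barcodes with 944 and 958 different first 6 bases, whereas the other 6 files list 32285 genes and carry 479 or 480 of them. The first pair will be called the second barcode set. The study's list of kit versions does not follow this split: it groups 24 h brain replicate 2 with the earlier kit and 24 h dura, with 72 h brain, with the later one. Results with a barcode term rest on the barcodes and gene lists of the files, not on that list. Mitochondrial UMIs made up 3.65% and 2.73% of Micro_1 in that set, against 0.871% in control brain and 0.823% in 24 h brain replicate 1. All control libraries lie in the first set and 72 h lies only in the second, so time and barcode set cannot be told apart in a comparison of 72 h with control. Pairs of libraries shared at most 43 barcodes, and the Micro_1 cells of all 28 pairs shared 4.

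The cluster name was checked against the genes given for it. Tmem119, a transmembrane protein that marks microglia (GRCm38 chromosome 5, 113793729 to 113800516), stood at 4405 CPM in Micro_1 of control brain, 4354 in 24 h brain replicate 1, 1453 in replicate 2 and 1021 at 72 h. P2ry12, the purinergic receptor that guides microglial processes to ATP and ADP (chromosome 3, 59216272 to 59262871), stood at 8784, 4515, 562 and 633 CPM in the same order. Sparc, a secreted matrix-associated glycoprotein (chromosome 11, 55394500 to 55423183), stood at 2794, 1596, 1733 and 3276 CPM. In all 4 brain libraries each of the 3 genes was higher in Micro_1 than in the other microglia clusters together and far above lymphoid cells, which should lack them. Lymphoid cells are the authors' B, T, gamma delta T, NK and ILC2 clusters. They held at most 171 CPM of Tmem119, 583 of P2ry12 and 80.0 of Sparc, all in control brain. The border macrophage cluster CAM_1 was closer, with 3085, 5033 and 2045 CPM of Tmem119, P2ry12 and Sparc in control brain, each below Micro_1. At 72 h CAM_1 held 194, 60.6 and 165 CPM of them.

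**Figure D1:**
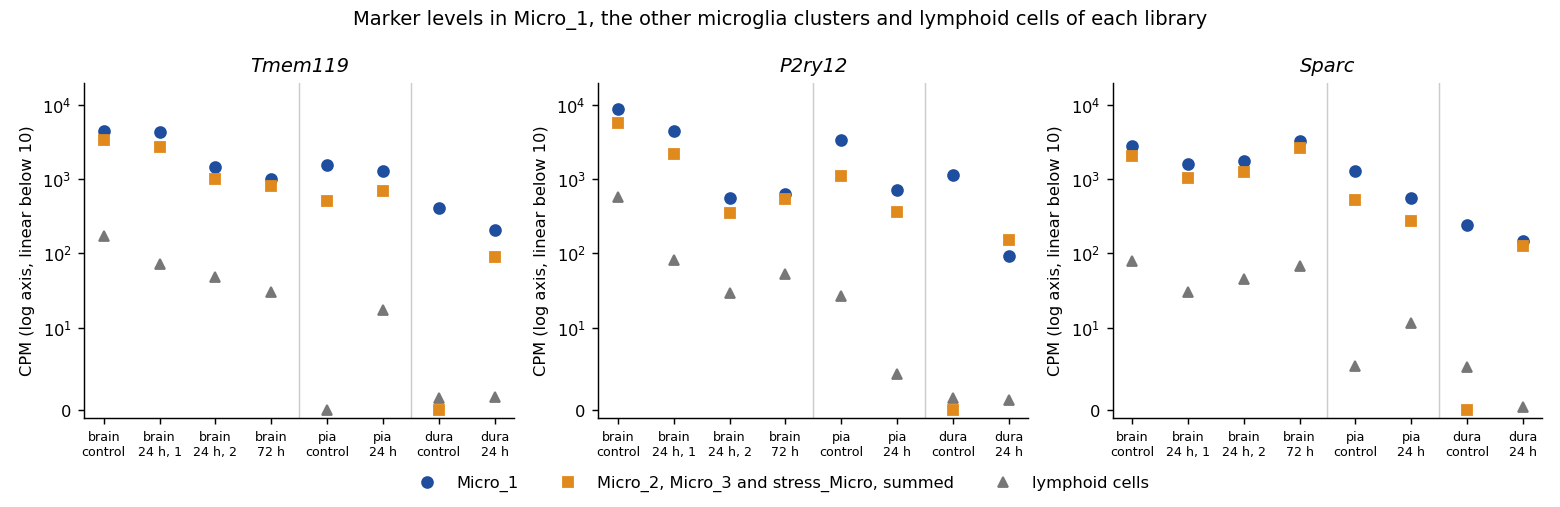
Levels of Tmem119, P2ry12 and Sparc (CPM, log axis that is linear below 10) in each of the 8 libraries, for Micro_1, for the other 3 microglia clusters summed, and for lymphoid cells. Micro_1 lies above lymphoid cells in every library for all 3 genes, and P2ry12 falls from 8784 CPM in control brain to 562 in 24 h brain replicate 2.

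The name held in brain and pia and was weak in dura. In pia Micro_1 held 1532 (control) and 1283 CPM (24 h) of Tmem119, whereas in dura it held 408 and 203 CPM. After each cell had been thinned to 1000 UMIs, which removes depth as a difference, Tmem119 was seen in 98.6% (95% exact interval 97.9 to 99.1) of Micro_1 cells of control brain and 26.3% (9.15 to 51.2) of those of 24 h dura. The unthinned values were 99.7% and 19.4%, and those of cells thinned to 500 UMIs were 87.6% and 8.33%. No Micro_1 cell of 24 h dura held a P2ry12 UMI after thinning (0 of 19 cells, upper exact limit 17.6%), and 8.33% did before it. The 60 dura cells were therefore kept apart in the levels below. Control dura, with fewer than 30 Micro_1 cells, entered the tests only under an alternative minimum of 10 cells.

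Micro_1 made up a smaller share of leukocytes in the brains taken after MCAO. It was 43.4% of annotated cells in control brain (95% exact interval 41.9 to 44.9), 30.6% (29.3 to 32.0) in 24 h brain replicate 1, 12.1% (11.0 to 13.2) in replicate 2 and 3.41% (2.96 to 3.89) at 72 h. These intervals cover counting error only. The 4 intervals did not overlap, but the gap between the 24 h replicates was wider than that between control and replicate 1. There is 1 control brain library, and the shares were not tested. As a share of microglia clusters alone, Micro_1 was 49.9% in control brain, 46.8% in 24 h brain replicate 1, 21.0% in replicate 2 and 20.1% at 72 h, a split that followed the barcode sets. Most stress_Micro cells of brain also came from the second set, with 479 in replicate 2 and 213 at 72 h against 14 in control brain and 11 in replicate 1. In the borders Micro_1 was 7.37% of annotated cells in control pia and 5.05% in 24 h pia, and 0.854% and 0.797% in dura. A lower share of a sorted suspension cannot be told apart from a larger number of other leukocytes.

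**Figure D2:**
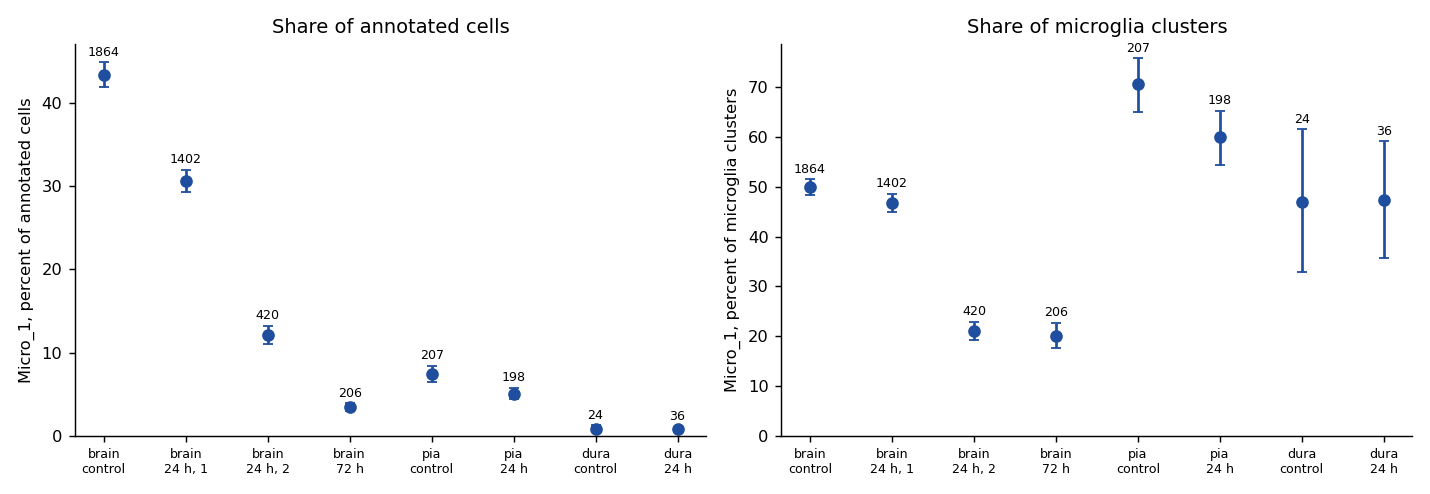
Micro_1 as a percentage of annotated cells (left) and of the cells in microglia clusters (right) in each of 8 libraries, with 95% exact binomial intervals and the number of Micro_1 cells above each point. Among annotated cells the share runs from 43.4% in control brain to 3.41% in 72 h brain, whereas among microglia clusters it is near 50% in control brain and 24 h brain replicate 1 and near 20% in the other 2 brain libraries.

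Within a library, Micro_1 stood apart from the 3 other microglia clusters summed by higher homeostatic genes and lower immediate early and cytokine genes. The clusters were made from these counts, so the differences describe the cluster and were not tested. Of 34 homeostatic genes, 30 were higher in Micro_1 in all 4 brain libraries and none was lower in all 4, with a median log2 ratio of 0.34. Across the 1986 genes with at least 50 CPM in the higher class of each brain library, 25.6% were higher in all 4, 11.4% were lower in all 4 and the median log2 ratio was 0.07. P2ry12 had log2 ratios of 0.61, 1.04, 0.69 and 0.23 in control brain, 24 h replicates 1 and 2 and 72 h. Slc2a5, a fructose transporter that marks microglia, and Gpr34, a lysophosphatidylserine receptor, had mean log2 ratios of 0.64 and 0.60. Micro_1 thus held more of most homeostatic genes than the other microglia clusters summed, and no gene was 1.5-fold higher in it in every brain library (0% of 1986). It was not above each single cluster in every library: at 72 h P2ry12 stood at 633 CPM in Micro_1 and 634 in Micro_2. Of 23 lysosomal genes, all with at least 50 CPM, 15 were higher in all 4 libraries (median log2 ratio 0.24), beside the 25.6% of all 1986 genes. Of 18 phagocytic receptors listed, 9 were, counted with no minimum level, where 7.46% of all genes with a UMI were. Among the receptors with at least 50 CPM it was 9 of 13, beside the same 25.6%.

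The genes that were lower in Micro_1 formed a short list. Past 1.5-fold in every brain library there were 15 of 1986 (0.755%), and 27 when 24 h brain replicate 2 was left out. The 8 with the lowest mean ratios were the chemokines Ccl4, Ccl3 and Ccl2, the cytokines Tnf and Osm, the secreted protease Adamts1, the cell cycle inhibitor Cdkn1a and the transcriptional inhibitor Id2. Ccl4 stood at 1016, 1899, 3166 and 3957 CPM in Micro_1 of control brain, 24 h replicates 1 and 2 and 72 h, and at 4285, 8178, 7150 and 10776 CPM in the other microglia. Log2 ratios of Ccl4 were -2.08, -2.11, -1.17 and -1.45 in that order. Adamts1 gave -1.63, -1.66, -1.33 and -1.42, the narrowest spread of the 8. The remaining 7 were Ier2, Nfkbiz, Atf3, Ifrd1, Dnajb1, Neat1 and Nfkbia.

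Counted over every listed gene, with no minimum level, 20 of 26 cytokine and nuclear factor kappa B genes were lower in Micro_1 in all 4 libraries, as were 20 of 23 immediate early genes and 8 of 14 heat shock genes. None of these 3 lists had a gene that was higher in all 4. Of the 19462 genes with a UMI in these cells, 4.83% were lower in all 4 and 7.46% higher. Among members with at least 50 CPM, 15 of 16 cytokine, 18 of 19 immediate early and 7 of 11 heat shock genes were lower in all 4. The share over all 1986 genes at that level was 11.4%. Immediate early genes are switched on within minutes of stimulation, tissue dissociation included. Chemokines and Fos did not follow the same clusters. Ccl4 was concentrated in Micro_3, with 11900 CPM in control brain and between 17172 and 19490 CPM after MCAO, whereas Micro_2 (1297, 2111, 3284 and 4522 CPM) lay close to Micro_1. Fos, a subunit of the transcription factor AP-1, was highest in Micro_2, with 13289, 10391, 5840 and 6988 CPM against 7589, 5625, 3439 and 3346 in Micro_1. Micro_3 held less Fos than Micro_2 in all 4 brain libraries (9417, 5078, 3967 and 2939 CPM), and less than Micro_1 in 24 h replicate 1 and at 72 h. For Jun, the other AP-1 subunit, Micro_3 (8854 and 9677 CPM) was also below Micro_1 (12287 and 11598 CPM) in the 24 h replicates.

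**Figure D3:**
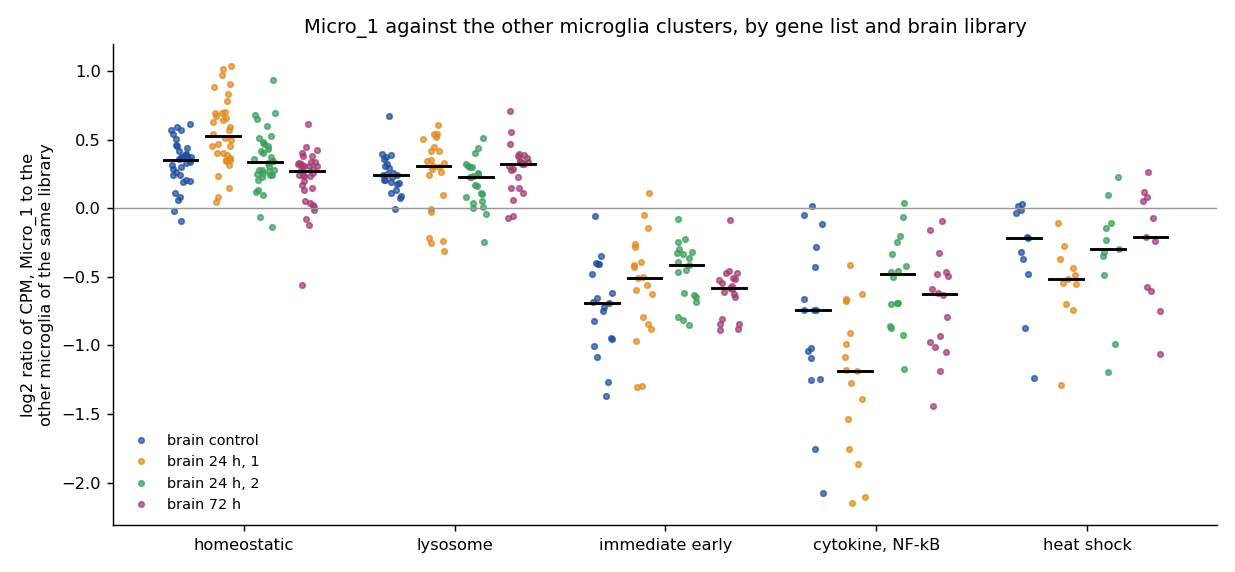
Log2 ratio of CPM in Micro_1 to CPM in the other microglia clusters of the same library, for the genes of 5 lists with at least 50 CPM in the higher class (1 point a gene, horizontal bars at the median) in control brain, 24 h brain replicates 1 and 2 and 72 h brain. Homeostatic and lysosomal genes lie mostly above 0, and immediate early, cytokine and heat shock genes mostly below it, in each of the 4 libraries.

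The study asked how leukocytes of the brain and its borders respond to stroke. For Micro_1 the comparison of 24 h with control addresses this. UMIs were summed over the Micro_1 cells of a library and tested across libraries with edgeR's quasi-likelihood test, brain and border tissue being a term, over 6 libraries with at least 30 Micro_1 cells. These held 24 h dura but not control dura, so that differences of dura from pia enter the 24 h comparison. A call needed a change of 2-fold or more together with an adjusted p (Benjamini-Hochberg) below 0.05. No gene was called higher and none lower among 5674 (0% in each direction), with 83 genes at an unadjusted p under 0.05, and DESeq2 called 7 higher and 1 lower. The smallest adjusted p was 0.105, for Spp1. Without 24 h brain replicate 1, 24 h brain replicate 2 or control pia there were 2, 8 and 6 genes higher, and 4 lower without replicate 2. Without 24 h dura no gene was called. Log2 fold changes then went from -0.91 to -0.53 (Tmem119), -2.52 to -2.05 (P2ry12) and -1.42 to -1.02 (Sparc). In the fit of all 6 libraries the homeostatic genes were below 0 in 31 of 34 cases, and none of them was called. Their median log2 fold change was -0.79 against 0.03 over all genes tested. In replicate 1 and pia alone, described below, the median was -0.40 against 0.09.

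When barcode set was added as a term, 18 of 7402 genes were called higher (0.243%) and 12 lower (0.162%). In this fit 24 h brain replicate 2 is the only library of its set, so that fold changes rest on the other 5 libraries. Fitted alone, those 5 libraries called 8 of 5014 genes higher (0.16%) and 4 lower (0.0798%), all of them among the 18 and 12. The 8 were Spp1, Lgals3, Lilrb4a, Lilr4b, Msr1, Cd300lf, Lpl and Capg, and the 4 were Irgm1, Ak1, Numb and Ttr, named here after their values were seen. In the fit with the term, leaving out control brain, 24 h brain replicate 1 or control pia left 2 genes higher and none lower in each case. Without 24 h pia 17 were higher and 2 lower, and without 24 h dura 64 and 36. The individual genes below are therefore given by library first.

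The homeostatic receptors P2ry12 and Gpr34 were called lower at 24 h in the fit with the barcode term over 6 libraries, and not without the term. P2ry12 stood at 8784 CPM in control brain and at 4515 and 562 in the 24 h brain replicates, at 3346 in control pia and 723 in 24 h pia, and at 1155 in control dura and 92.5 in 24 h dura. Every 24 h library was below the control library of its own tissue. With the barcode term the log2 fold change was -2.23 ± 0.48 (SE, adjusted p = 0.0021 by edgeR). Without the term it was -2.52 ± 0.88 (adjusted p = 0.9995), and in the 5 libraries alone -2.21 (adjusted p = 0.58), neither of them a call. Gpr34 stood at 2298, 1381 and 581 CPM in control brain and the 24 h replicates, at 1051 and 248 in control and 24 h pia, and at 680 and 74.0 in dura. Its log2 fold change with the term was -1.88 ± 0.43 (adjusted p = 0.0045 by edgeR), and in the 5 libraries alone -1.84 with an adjusted p = 0.217. After thinning, P2ry12 was seen in 100% of Micro_1 cells in control brain, 96.4% in 24 h replicate 1 and 45.7% in replicate 2, and in 89.9% and 39.2% in control and 24 h pia. Thinned to 500 UMIs instead, P2ry12 was seen in 98.0%, 86.3% and 22.4% in those brain libraries and 76.3% and 28.3% in pia. The unthinned shares of P2ry12 were 100%, 98.2% and 34.3% in those brain libraries and 92.3% and 50.5% in pia. The replicates at 24 h thus differed from each other by more than replicate 1 did from control. The fractalkine receptor Cx3cr1 was not lower in 24 h brain, with 2144 CPM in control and 2226 and 3744 in the replicates, and was not called.

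Tmem119 was not called. It stood at 4405 CPM in control brain and at 4354 and 1453 in the 24 h brain replicates, at 1532 and 1283 in control and 24 h pia, and at 408 and 203 in dura. It was close to control in replicate 1 (log2 difference -0.02) and pia (-0.26) and lower in replicate 2. The dura values rest on 12 and 11 UMIs, and their intervals of counting error overlap (211 to 712 and 102 to 364 CPM). Tmem119 gave -0.91 ± 0.73 in the fit without the barcode term and -0.69 ± 0.46 with it, and Sparc gave -1.49 ± 0.44 with it and was not called. Among the 34 homeostatic genes 2 were called in that fit, both lower, where 0.162% of all genes were called lower. All 34 were below 0, with a median log2 fold change of -0.77 against -0.01 over all genes. This fit too held 24 h dura but not control dura. In brain replicate 1 and pia alone, 24 of the 34 were lower in both tissues and 4 higher in both, with a median of -0.40. Other genes called lower were Irgm1, an interferon-inducible GTPase, at 29.2 CPM in control brain and 2.87 and 9.18 in the 24 h brain replicates, and Upk1b, a uroplakin, at 236, 88.6 and 20.7 CPM. Serinc3, a membrane protein of the serine incorporator family, fell from 3153 CPM in control brain to 1334 and 1212 and from 1923 to 450 in pia (log2 fold change -1.70 ± 0.44, adjusted p = 0.033 by edgeR). Ak1, an adenylate kinase, and Rp2, an activator of a small GTPase, were called too (-1.64 and -1.30). Of these 5 genes, Upk1b, Serinc3 and Rp2 were not called in the 5 libraries alone.

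Several of the genes that were called higher at 24 h were also found in lymphoid cells. Spp1, the secreted phosphoprotein osteopontin, stood at 2.3 CPM in control brain (7 UMIs) and at 388 and 317 in the 24 h replicates, at 5.5 and 170 in control and 24 h pia, and at 102 and 185 in dura. Lymphoid cells held 434, 547 and 171 CPM of Spp1 in control brain and the 24 h replicates, 61.8 and 84.1 in pia, and 20.1 and 14.9 in dura, the control value resting on 1 of 68 lymphoid cells (1.47%), so that by CPM Micro_1 was above them in replicate 2, 24 h pia and dura and below them in replicate 1. Its log2 fold change with the barcode term was 6.74 ± 0.60 (adjusted p = 4.45e-25 by edgeR). In the 5 libraries alone it was 6.78 (adjusted p = 1.58e-07 by edgeR). Without the term it was 6.35 (adjusted p = 0.105), not a call. In cells thinned to 1000 UMIs, Spp1 was seen in 32.9% of Micro_1 cells and 36.4% of lymphoid cells of 24 h brain replicate 1, and in 12.9% and 16.5% in replicate 2. Unthinned, these were 41.7% and 34.7%, then 24.3% and 27.5%. Lymphoid cells held a median of 1231 and 1879 UMIs in those libraries, and Micro_1 cells 1471 and 805. The share of Micro_1 cells with Spp1 in 24 h brain was thus no higher than that of lymphoid cells at matched depth. Whether Micro_1 itself expressed Spp1 was not tested. The part of free RNA in the rise was not tested. In 24 h pia the thinned share was 11.1% (6.61 to 17.2) in Micro_1 and 7.67% (5.07 to 11.0) in lymphoid cells, with overlapping intervals.

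Lilrb4a and Lgals3, an inhibitory immunoglobulin-like receptor and the lectin galectin-3, were below lymphoid cells by CPM in brain. Lilrb4a rose from 1.64 to 63.7 and 18.4 CPM in brain (log2 fold change with the term 3.53 ± 0.42, adjusted p = 3.36e-13 by edgeR), beside 149, 182 and 25.7 CPM in lymphoid cells of the same libraries. The Lilrb4a fold change was 3.56 in the 5 libraries alone (adjusted p = 0.0042 by edgeR). Without the term it was 3.36 (adjusted p = 0.9995), not a call. Lgals3 rose from 3.28 to 50.3 and 39.0 CPM (3.27 ± 0.42), beside 274, 304 and 92.8 in lymphoid cells. Lilr4b, Cyp4f18 and Lgals1 were also called higher with the term, the latter pair not in the 5 libraries alone, and were below lymphoid cells in those 3 libraries. Lgals1 is made by T and NK cells as well. The lymphoid cells of both control and 24 h brain held these genes, so for them the rise in Micro_1 is reported as a level and its source was not tested.

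Cd300lf, Lpl and Msr1 exceeded the lymphoid level in part. Cd300lf, a receptor of the CD300 family, stood at 3.61, 25.4 and 41.3 CPM in control brain and the 24 h replicates and at 2.74 and 62.9 in control and 24 h pia. Lymphoid cells of those libraries held 0, 0, 7.83, 10.7 and 1.45 CPM of Cd300lf. Its log2 fold change with the term was 2.98 ± 0.54 (adjusted p = 2.53e-05 by edgeR), and Cd300lf in Micro_1 was above lymphoid cells in all 4 libraries at 24 h, dura included. Lpl, lipoprotein lipase, was seen after thinning in 9.80% (5.59 to 15.7) of Micro_1 cells of 24 h pia and 0.295% (0.00747 to 1.63) of lymphoid cells there, and unthinned in 13.1% and 0.513%. In 24 h brain the Lpl shares were 1.84% in Micro_1 of replicate 1 and 6.90% in replicate 2, beside 0% (0 of 55 cells, upper exact limit 6.49%) and 4.27% in lymphoid cells, so that a difference was not detectable at this depth. Unthinned, they were 3.00% and 6.67% in Micro_1 and 2.78% and 7.09% in lymphoid cells. Lpl had a log2 fold change of 2.65 ± 0.46 with the term (adjusted p = 7.64e-06 by edgeR), and Msr1, a scavenger receptor, 3.76 ± 0.61 (adjusted p = 1.09e-06). In the 5 libraries alone the adjusted p-values by edgeR were 0.0021 for Lpl and 0.0060 for Msr1. Neither gene was called without the term. Msr1 stood at 1.31, 16.3 and 57.4 CPM in brain and at 2.74 and 78.6 in pia, beside 20.2 and 7.83 in lymphoid cells of 24 h brain and 10.7 and 2.90 in those of control and 24 h pia.

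**Figure D4:**
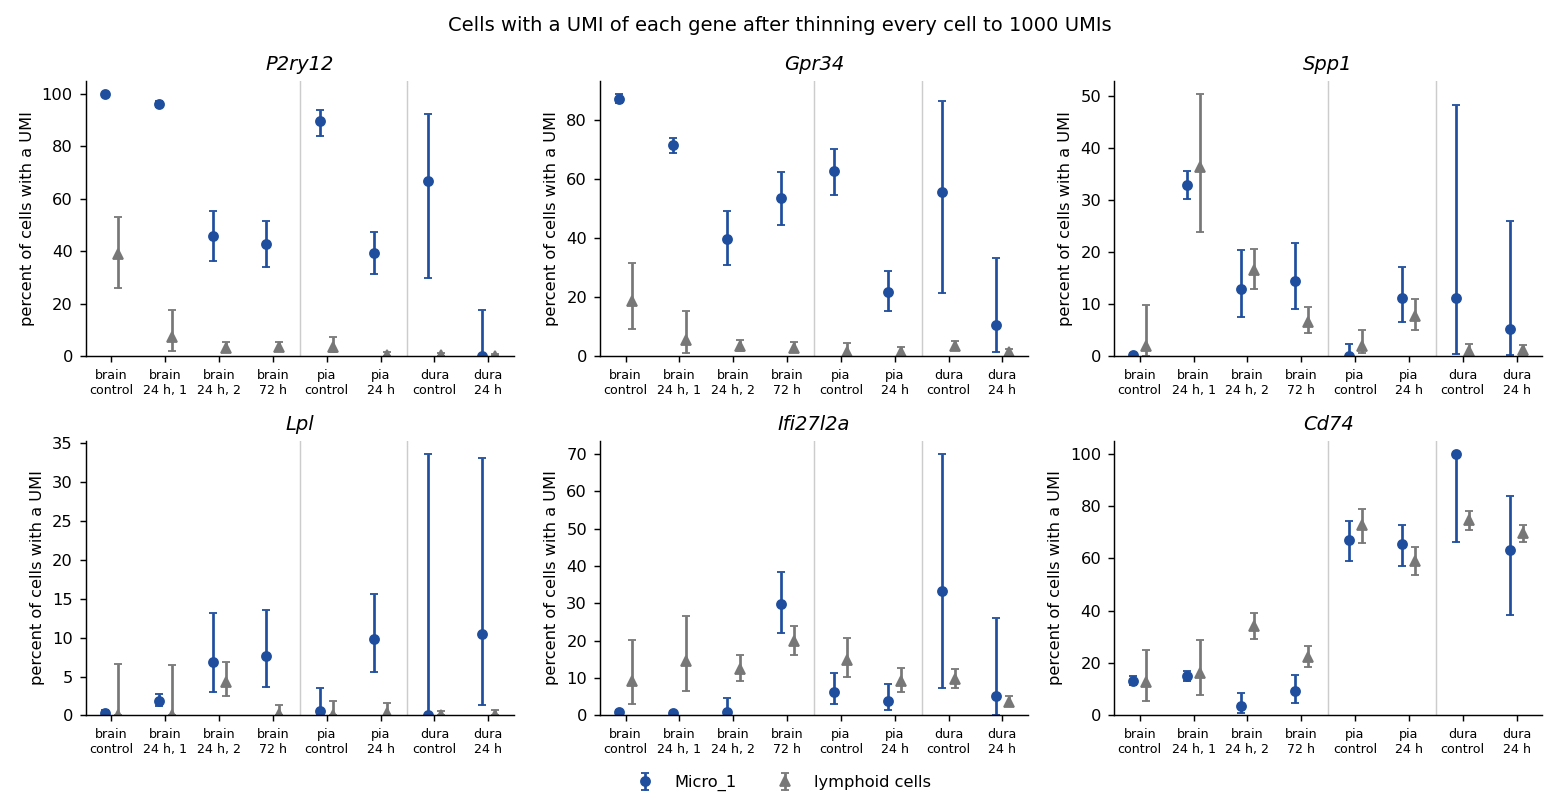
Percentage of cells with at least 1 UMI of P2ry12, Gpr34, Spp1, Lpl, Ifi27l2a and Cd74 after each cell was thinned to 1000 UMIs, for Micro_1 and lymphoid cells of 8 libraries, with 95% exact binomial intervals. Micro_1 is far above lymphoid cells for P2ry12 and Gpr34 in all libraries but 24 h dura, and overlaps them for Spp1 in both 24 h brain libraries.

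Within the first barcode set alone, 24 h brain replicate 1 was set against control brain and 24 h pia against control pia, as values with no test. Of 2747 genes with enough UMIs, 13 were at least 2-fold higher in both tissues (0.473%) and 7 lower in both (0.255%). Homeostatic genes were lower in both tissues in 24 of 34 cases, where 26.1% of all genes were, with P2ry12 at log2 differences of -0.96 in brain and -2.21 in pia. The median log2 difference of the list was -0.40 against 0.09 over all genes. Over every listed gene, 12 of 26 cytokine genes were higher in both, where 29.4% of the 13490 genes with a UMI were. Among genes with enough UMIs it was 8 of 16, near the 43.2% of all 2747 genes. Tnf, among the 13, stood at 25.0 and 60.8 CPM in control and 24 h brain and at 60.2 and 192 in pia.

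At 72 h some interferon-stimulated genes were higher than in both 24 h libraries, whereas no homeostatic gene passed the fold. There is 1 library, so folds are given with no test, and a gene was counted when it was at least 2-fold higher or lower than in both 24 h brain libraries. There were 146 of 4571 higher (3.19%) and 137 lower (3%), and the homeostatic list had 0 of 34 in either direction, with a median log2 ratio of -0.09 against 0.05 over all genes. Against replicate 2 alone the homeostatic median was 0.16 against -0.23 over all genes, with 19 of 34 genes above 0 and 1 past the fold in each direction. Ifi27l2a, an interferon-stimulated gene, stood at 6.9 CPM in control brain, 5.27 and 25.3 in the 24 h replicates and 580 at 72 h. It was 22.0-fold above replicate 2, the 24 h library of the same barcode set. Thinned, it was seen in 29.8% (22.1 to 38.4) of Micro_1 cells and 19.9% (16.2 to 24.0) of lymphoid cells at 72 h, against 0.862% and 12.5% in replicate 2. Unthinned, the 72 h shares were 30.6% and 22.1%. Only at 72 h did the Ifi27l2a share of Micro_1 pass that of lymphoid cells in brain, and the intervals of the 2 classes there overlap. Lymphocytes can express interferon-stimulated genes themselves.

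Fn1, which encodes fibronectin, stood at 0.328, 1.92, 4.59 and 109 CPM in control brain, the 24 h replicates and 72 h, beside 29.0 CPM in lymphoid cells at 72 h. Fabp5, a fatty acid binding protein, stood at 1.64, 1.44, 9.18 and 117 CPM, beside 104 in lymphoid cells, and its thinned share of 4.58% was below the lymphoid 6.56%. Fabp5 was thus near the lymphoid level by both measures. Whether Micro_1 itself expressed Fabp5 was not tested. Stmn1, a microtubule regulator of dividing cells, stood at 41.4, 53.1, 16.1 and 220 CPM, against 54.6 in lymphoid cells at 72 h. Cxcl10, an interferon-induced chemokine, stood at 4.6, 5.75, 68.9 and 204 CPM, and was 2.93-fold above replicate 2. Lgals1, Ccdc152 and Hist1h2ae completed the 8 highest.

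Counted over every listed gene, with no minimum level, 11 of 26 interferon genes were at least 2-fold higher than in both 24 h libraries and 1 was lower, where 10.4% and 9.37% of the 14537 genes with a UMI were. Against replicate 2 alone 23 of the 26 were higher, where 38.5% of those genes were. The summed level of the list was 459, 633 and 572 CPM in control brain and the 24 h replicates and 2041 at 72 h, where the other microglia held 2020 CPM and lymphoid cells 1605. Of 24 genes of the disease-associated microglia list 6 passed the fold against both and none was lower by it, beside the same shares of all genes. Against replicate 2 alone, all 24 were higher. Apoe, the lipid carrier apolipoprotein E, stood at 332, 617, 1162 and 3109 CPM and Cst7, the protease inhibitor cystatin F, at 8.21, 10.1, 18.4 and 94.8. Ifitm3, an interferon-induced membrane protein, stood at 13.1, 34.5, 27.5 and 201 CPM. These 3 genes were higher at 72 h than in each 24 h library, and lymphoid cells at 72 h held 1029, 74.6 and 73.5 CPM of Apoe, Cst7 and Ifitm3.

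The genes that moved at 72 h were not all particular to Micro_1. Of the 146 higher genes 51 encode ribosomal proteins, as do none of the 137 lower and 79 of all 4571 (1.73%). Against replicate 2 alone they were 62 of 390 higher and none of 514 lower. Ribosomal protein genes made up 2.82%, 3.32%, 4.45% and 11.2% of Micro_1 UMIs in the 4 brain libraries, and 15.2%, 16.3%, 23.7% and 25.6% of lymphoid UMIs. Their part in the result was not tested. Of the 91 higher genes that are not ribosomal or unnamed models, 55 stood above the lymphoid level at 72 h. Among the 8 lowest, Rnasek stood at 238, 230, 2.3 and 0 CPM in control brain, the 24 h replicates and 72 h, and at 183, 182, 1.12 and 1.11 CPM in lymphoid cells. Cyb561a3, Wdr74, Rab4b and Phyhd1 were likewise low in both libraries of the second barcode set. Ddit4, a stress-induced inhibitor of mTORC1, differed within that set, at 158, 237, 66.6 and 5.58 CPM, as did Cyp4f13 (80.8, 177, 82.6 and 11.2) and Bid (91.0, 94.3, 27.5 and 5.58). Against replicate 2 alone, 390 of 3945 genes were higher and 514 lower.

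In Micro_1 cells of pia and dura, markers of border macrophages and some MHC class II genes were higher than in brain Micro_1. In the same edgeR fit, 28 of 5674 genes were higher in border than brain (0.493%) and 2 lower (0.0352%). No gene was called in either direction without 24 h dura, 14 were higher and none lower without 24 h pia, and without 24 h brain replicate 2 there were 357 and 142. The count lower was 7, 5 and 4 without 24 h brain replicate 1, control brain and control pia in turn. With the barcode term 426 of 7402 were higher (5.76%) and 211 lower (2.85%). The 24 h dura library entered with 36 cells and 54305 UMIs.

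Pf4, a chemokine of border-associated macrophages, stood at 0.657, 2.87 and 2.3 CPM in control and 24 h brain, at 87.5 and 101 in control and 24 h pia, and at 2005 and 462 in control and 24 h dura. Its log2 fold change was 6.52 ± 0.75 (adjusted p = 0.011 by edgeR). F13a1, coagulation factor XIII subunit A, stood at 0, 1.44 and 2.3 CPM in brain, 38.3 and 173 in pia and 1155 and 185 in dura. Ms4a7, another border macrophage marker, stood at 30.1 and 31.5 CPM in pia and 544 and 555 in dura, and at no more than 0.328 in those brain libraries. It was called in this fit (log2 fold change 8.48), but not with the barcode term (8.04) or without 24 h brain replicate 2 (8.12). Brain and border libraries did not overlap for any of these genes.

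In control pia the lymphoid cells held as much of these genes. Lymphoid cells had 129 and 30.5 CPM of Pf4 in control and 24 h pia, and 64.0 and 46.7 in dura. They had 69.8 and 37.7 CPM of F13a1 in pia. Thinned, Pf4 was seen in 7.59% (3.99 to 12.9) of Micro_1 and 6.47% (3.49 to 10.8) of lymphoid cells of control pia, and unthinned in 11.6% and 9.96%. In control dura it was seen in 55.6% (21.2 to 86.3) of 9 Micro_1 cells and 5.32% (3.64 to 7.46) of lymphoid cells, and unthinned in 54.2% and 6.28%. The 8 border macrophage markers summed to 2.63, 8.14, 11.5 and 36.2 CPM in Micro_1 of the 4 brain libraries, with between 3 and 5 of the 8 at 0 in each. In control pia, 24 h pia, control dura and 24 h dura they summed to 249, 450, 4960 and 1664 CPM, with none at 0 and Pf4 the most abundant. The border macrophage cluster CAM_1 held between 6430 and 8836 CPM in those 4 libraries. The part of these markers in the border result was not tested, and lymphoid cells held 336, 133, 153 and 126 CPM of them. The other microglia clusters held 2771, 1761, 5280 and 3058 CPM in the same order, more than Micro_1 in each.

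Of 6 genes of MHC class II presentation that could be tested 4 were called higher in border tissue, where 0.493% of all genes were. Cd74, the invariant chain, stood at 166, 196 and 87.2 CPM in control and 24 h brain, 1767 and 2133 in pia and 10396 and 3883 in dura (log2 fold change 3.98 ± 0.59, adjusted p = 0.025 by edgeR). H2-Aa, H2-Ab1 and H2-Eb1, the chains of the class II molecules, gave 4.37, 3.54 and 4.70. H2-DMa and H2-DMb1, which load peptides, gave -0.78 and -0.02 and were not called. Summed, the class II list stood at 2938 and 3016 CPM in Micro_1 of control and 24 h pia and at 17283 and 6557 CPM in lymphoid cells. The other microglia clusters of those libraries held more of it than Micro_1, with 21734 and 4211 CPM. In control dura Micro_1 held the most, with 15051 CPM against 8469 in the other microglia and 7969 in lymphoid cells. In 24 h dura it held 5603 CPM against 7891 and 11725. The thinned share of cells with Cd74 was 67.1% (59.2 to 74.3) of Micro_1 and 72.6% (65.9 to 78.7) of lymphoid cells in control pia, and 65.4% (57.3 to 72.9) and 59.0% (53.6 to 64.3) in 24 h pia. Unthinned, these were 82.1% and 80.8%, then 77.3% and 68.9%. Lymphoid cells include B cells, which express class II genes themselves, so they give no level for free RNA here, and the part of free RNA in the border result was not tested.

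Other genes that were called higher in border Micro_1 stood above the lymphoid level in pia. Cd83, an activation-associated surface protein, stood at 303, 346 and 197 CPM in brain, 3433 and 2356 in pia and 2820 and 1978 in dura (3.11 ± 0.54, adjusted p = 0.035 by edgeR), with 991 and 289 in lymphoid cells of pia. Cdkn1a stood at 81.4, 124 and 80.3 CPM in brain and 777 and 1397 in pia (3.27 ± 0.56, adjusted p = 0.035), with 215 and 379 in lymphoid cells of pia. Il1b, interleukin 1 beta, stood at 0.657, 6.7 and 11.5 CPM in brain and 120 and 195 in pia, against 51.0 and 46.4 in lymphoid cells of pia (5.38 ± 0.71, adjusted p = 0.015). Gpx3, Cbr2, Lgals1 and Ifitm2 were also called higher. Tmx4, a thioredoxin-related membrane protein, was called lower, with 631, 720 and 1731 CPM in brain against 68.4 and 15.7 in pia (-4.95 ± 0.82, adjusted p = 0.032). It was low in pia at both times.

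Homeostatic genes lay below brain in border tissue as a list, and their calls depended on the barcode term. All 34 were below 0, with a median log2 fold change of -1.32 against -0.10 over all genes, and 0 of 34 passed the test. With the barcode term 15 of 34 were called lower, where 2.85% of all genes were, with a median of -1.14. Summed, they stood at 168640 CPM in control brain, 137420 and 70394 in the 24 h replicates and 84365 at 72 h. In pia they stood at 106848 (control) and 65117 CPM (24 h), and in dura at 65233 and 33911. CAM_1 cells of control brain held 125260 CPM of the same genes, close to the 130520 CPM of the other microglia there, whereas at 72 h CAM_1 held 24004. Whether the change at 24 h differed between brain and border was tested as an interaction with edgeR over 7402 genes, with a median log2 value of -0.16. Brain and border each had 1 control library in this fit, and dura entered only at 24 h. The fit therefore cannot decide the question.

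**Figure D5:**
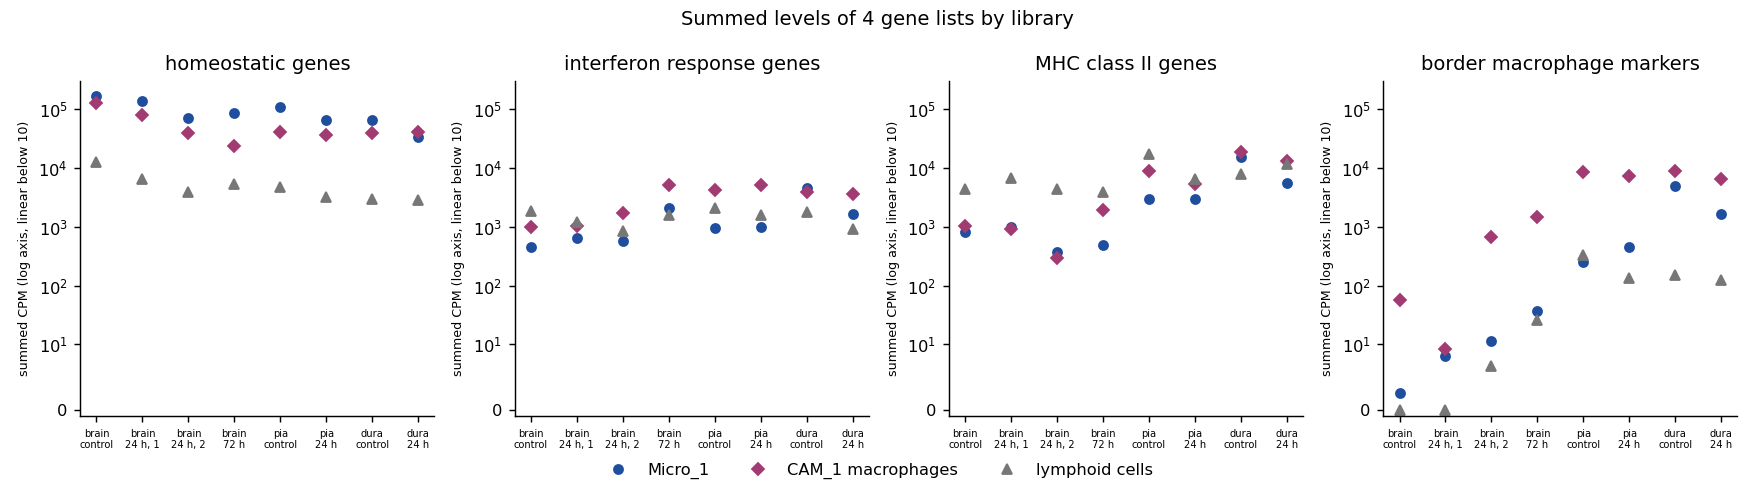
Summed CPM (log axis that is linear below 10) of homeostatic, interferon response, MHC class II and border macrophage genes in Micro_1, CAM_1 macrophages and lymphoid cells of 8 libraries. Homeostatic sums of Micro_1 fall from 168640 CPM in control brain to 33911 in 24 h dura, interferon sums of brain Micro_1 are highest at 72 h (2041 CPM), and border macrophage markers rise from 2.63 CPM in control brain to 4960 in control dura.

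Markers of several other cell types were not at 0 in brain Micro_1. Its 4 libraries summed to between 216 and 426 CPM of B cell markers (led by Ighm), 199 and 443 of neutrophil markers (led by Csf3r), 123 and 248 of astrocyte markers (led by Slc1a3) and 103 and 289 of oligodendrocyte markers (led by Cnp). Lymphoid cells of these libraries held 911 to 3748, 10.1 to 132, 11.4 to 106 and 192 to 368 CPM of the 4 lists in the same order. Ms4a1, Ly6g and Mog, defining genes of B cells, neutrophils and oligodendrocytes, were at 0 in Micro_1 of every library. The part of these markers in the results was not tested. Markers of monocytes summed to between 5.58 (control) and 58.6 CPM (72 h) in brain Micro_1. Lymphoid cells held between 455 and 877 CPM of them, led by Ly6c2, which T cells also express. In brain, dendritic cell markers summed to at most 4.59 CPM and T and NK cell markers to at most 22.3 CPM. In 24 h dura the monocyte markers reached 740 CPM. Erythroid markers, led by the haemoglobin gene Hbb-bs, summed to 0 CPM in control brain and 24 h brain replicate 1 and to 870 and 485 CPM in replicate 2 and 72 h. Lymphoid cells of the latter libraries held 490 and 765 CPM of them. Neuronal markers summed to 2.96 and 2.39 CPM in control brain and replicate 1, and to 89.5 and 39.0 in replicate 2 and 72 h, where lymphoid cells held 49.2 and 36.8. Haemoglobin and neuronal RNA was thus found in both cell classes of the second barcode set of brain. In the brain libraries of the first set it was at no more than 2.96 CPM in either class. In dura, also of the first set, Micro_1 held 68.0 CPM of erythroid markers (control) and 74.0 of neuronal markers (24 h). Its part in the results that differ between the sets was not tested.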

How the data were processed

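Deposited files were UMI count matrices of 8 libraries, which the authors made with Cell Ranger 6.0 on mm10 per the submitters' processing notes, and a table that assigns cells to 21 clusters. Per the study's methods, cells were filtered by genes and mitochondrial share and doublets were removed with scDblFinder before clustering, and no further filter or doublet caller was applied here. The authors' UMAP coordinates were not used. Barcodes were joined to the annotation, and the 30406 genes shared by all files were kept, each symbol by its identifier with the most UMIs. Clec7a and Mx1 were not analysed here. Summed counts were tested with edgeR 4.0.16 in R 4.3.3 (filterByExpr, TMM, robust glmQLFit), with DESeq2 1.42.0 as an alternative, after a check on simulated data. In that check 200 genes were changed 4-fold at the dispersion fitted to these libraries. The test without the barcode term recovered 13% of them for 24 h against control and 27.5% for border against brain, so it misses most changes of that size. SE was derived from the log2 fold change and its F statistic. Single-library log2 ratios add 0.5 counts. A minimum of 30 Micro_1 cells was set for a test, 50 CPM for ratios. Thinning to 1000 UMIs left out shallower cells, for example 82 of the Micro_1 cells in control brain and 304 in 24 h brain replicate 2. Intervals are Clopper-Pearson and cover counting error only.

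Genes were named by rule: the 3 markers, list members with the highest level or change, and up to 8 called genes in each direction that moved alike in both 24 h brain libraries or in every border library, or the 8 most extreme ratios. Ribosomal, mitochondrial and unnamed gene models were counted but not named. The genes Tnf in the first barcode set, the further 7 lower genes and the lymphoid and CAM_1 levels were chosen after values were seen. Members and gene lists were chosen with earlier results of these data known. Gene positions are from GENCODE M21 on GRCm38. The cells in the annotation are as many as the total in the study's results, and fewer than the number given in its methods.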

Additional observations from a re-analysis of the deposited data

How the results depend on the processing

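For 24 h against control, the count of genes called higher (0) was 7 with DESeq2, 15 without a low-count filter, 18 with the barcode term, and 0 to 8 with each library left out. The count lower (0) was 1 with DESeq2, 12 with the barcode term and 0 to 4 with each library left out. For border against brain, the counts of 28 higher and 2 lower were 99 and 30 with DESeq2, 61 and 8 with libraries of at least 10 cells, 85 and 31 without a low-count filter, 426 and 211 with the barcode term, and 0 to 357 and 0 to 142 with each library left out. For 72 h, the counts of 146 and 137 were 1086 and 838 against replicate 1 alone, 390 and 514 against replicate 2 alone, and 260 and 337 at a minimum of 20 CPM. With TMM-scaled CPM 88 genes were lower. Against the other microglia, the counts of 0 higher and 15 lower were 3 and 30 against Micro_3 alone, and 0 to 1 and 16 to 27 with each library left out. At 20 CPM 1 was higher, and at a fold of 2 there were 2 lower. The mean change in share at 24 h (-22.0 points) lay between -26.3 and -12.8 under the other denominators. With 1 of the 24 h libraries left out it was -31.3 or -12.8, which is the change of the other replicate by itself. The causes were not tested. No log2 fold change of the named genes followed through these alternatives changed sign, but at 72 h more genes were lower than higher against replicate 2 alone and at 20 CPM, and some list medians, over members with enough UMIs, changed sign. At 72 h, against replicate 2 alone, the homeostatic median went from -0.09 to 0.16, MHC class II from -0.42 to 0.44, phagocytic receptors from 0.18 to -0.03 and the TGF-beta and Mef2 list from 0.21 to -0.44. With the barcode term, heat shock at 24 h went from 0.12 to -0.12, the TGF-beta and Mef2 list from 0.06 to -0.26 and MHC class I in border tissue from 0.14 to -0.07. Phagocytic receptors at 24 h went from -0.01 to 0.17 by library size and 0.02 with DESeq2.

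Library size without TMM moved the median log2 fold change of all genes at 24 h from 0.03 to 0.18. No paired analysis was possible by replicate number because the control and 24 h groups share only number 1. Matched by tissue, a block (brain, pia and dura, 7 libraries with at least 10 cells) called 0 genes higher and 0 lower at 24 h by edgeR, with 111 at an unadjusted p under 0.05. With 1 control library a tissue and 3 residual degrees of freedom, large changes can also miss the threshold, and a gene that was not called is not shown to be unchanged. The comparison within the first barcode set, the test of the interaction, the term fit with libraries left out, the tissue block, the lists against replicate 2 and the list counts with no minimum level were added after the data were seen.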

Other observations

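Iron storage and oxidant defence genes were more abundant in border than in brain Micro_1, at levels like those of the neighbouring macrophage classes. Their summed level was 12127 CPM in control brain, 16739 and 4073 in the 24 h replicates, 9165 at 72 h, 28173 and 41262 in control and 24 h pia, and 42605 and 33874 in dura. Lymphoid cells of the same libraries held 6652, 9615, 3611, 4578, 9188, 10568, 8414 and 9455 CPM. The other microglia of control and 24 h pia and control and 24 h dura held 26869, 39626, 34894 and 37305 CPM, and CAM_1 held 24187, 34282, 42548 and 48697. Ftl1, the ferritin light chain, was the most abundant member. None of the 10 testable genes was called by edgeR in border against brain (median log2 fold change 1.66 against -0.10 over all genes), and 7 of 12 were called higher with the barcode term, where 5.76% of all genes were. Hmox1, the haem-degrading enzyme, stood at 69.0, 65.6, 87.2 and 103 CPM in brain, 1111 and 2532 in control and 24 h pia and 272 and 166 in dura, with 13.4 and 40.6 CPM in lymphoid cells of pia (4.12 ± 0.87, adjusted p = 0.089 by edgeR).

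Cell cycle genes summed to 366, 408, 785 and 1333 CPM in Micro_1 of control brain, the 24 h replicates and 72 h, and to 926, 820, 911 and 1237 CPM in lymphoid cells. Mki67, a gene of dividing cells, stood at 0.657, 0, 0 and 44.6 CPM in Micro_1 and 21.2 CPM in lymphoid cells at 72 h. There is 1 library at 72 h, so this is a value with no test.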
